A study of Mus musculus with 6 samples.

Results

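Calcium moves through secretory mammary epithelium in a set order. It enters across the cell surface by channels, is carried and buffered in the cytoplasm by small binding proteins, and is pumped or exchanged outward or into the endoplasmic reticulum and Golgi. In gut and kidney, active vitamin D, acting through its receptor, is known to raise the entry channel and the binding proteins of this route, and in the lactating breast a surface calcium pump, the calcium-sensing receptor and the hormone PTHrP tie milk calcium to the mother's bone.

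The genes described here are 10 members of this system: the channel gene Trpv6, the buffer genes S100g and Calb1, the exchanger gene Slc8a1, the surface pump genes Atp2b1 and Atp2b2, the Golgi pump gene Atp2c1, the reticulum pump gene Atp2a2, the receptor gene Casr and the hormone gene Pthlh. They were chosen by symbol, and every bead array probe annotated to one of them was taken. Of the 10 genes, 9 had such a probe, out of 19057 named genes on the array, and together they had 21 of its 45279 probes. Pthlh had none under its symbol, so its expression was not analysed here.

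Expression was measured in 6 breast tumours of mice of FVB background, 1 Illumina array per tumour. The 3 control tumours had the genotype Cyp27b1 flox/flox;Cre-, and the 3 knockout tumours were Cyp27b1 flox/flox;Cre+. Both groups therefore carried the floxed alleles, while only knockout tumours had Cre, so Cre itself and loss of Cyp27b1 cannot be told apart. Cyp27b1 encodes the enzyme that completes active vitamin D, and the series title places its loss in mammary epithelium. Neither the promoter driving Cre nor the tumour model nor the age of the mice stands in the labels read here. None of them ties a tumour to an animal, so p-values weigh a difference only against the spread between these samples.

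Between 33.4% and 36.1% of probes on an array were above background, here a detection p below 0.05. The keratin genes Krt8 and Krt18, which mark mammary epithelium, were above background in all 6 tumours. The 1 probe of Cyp27b1 was above background in none, with a normalized log2 signal of 4.34 ± 0.05 (SD, n = 3) in control and 4.36 ± 0.07 (SD, n = 3) in knockout tumours (exact two-sided permutation p = 0.80, where 3 against 3 cannot go below 0.1). It does not check the deletion.

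Regulatory stretches of a pair of genes are shown because these genes, Trpv6 and Slc8a1, carry most of what follows, and because the vitamin D receptor binds, with its RXR partner, paired copies of a short half-site. They are the 250 bases before the RefSeq start of each gene in GRCm38.p6, on the strand of the gene. Capitals mark the half-site AGGTCA on either strand. Searched in the same way were its close relatives, namely AGTTCA and, in addition, the sequence GGGTCA, together with the sequence GGTTCA.
Trpv6 (chr6:41636406-41636655, minus strand): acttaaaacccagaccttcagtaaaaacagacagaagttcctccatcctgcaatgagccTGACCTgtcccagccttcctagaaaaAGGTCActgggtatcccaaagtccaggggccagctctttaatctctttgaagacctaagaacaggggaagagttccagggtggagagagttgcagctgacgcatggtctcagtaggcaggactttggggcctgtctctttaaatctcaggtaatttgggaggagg
Slc8a1 (chr17:81738388-81738637, minus strand): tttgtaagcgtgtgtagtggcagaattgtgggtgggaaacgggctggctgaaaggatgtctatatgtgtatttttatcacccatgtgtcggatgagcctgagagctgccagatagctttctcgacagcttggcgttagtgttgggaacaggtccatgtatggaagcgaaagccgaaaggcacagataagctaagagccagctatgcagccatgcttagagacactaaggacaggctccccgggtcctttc
The Trpv6 stretch held 2 half-sites, 1 on each strand, and the Slc8a1 stretch held 0. Over 12 such windows of 8 member genes, 6 held a half-site, beside 38.6% of 32851 windows over all genes. None of the 12 held any 2 of these half-sites on the same strand with 3 bases between them, an arrangement present in 0.0396% of all windows. A match or its absence in these letters describes the window only.

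A probe was tested if it was above background on at least 3 of the 6 arrays, which held for 7 of the 21 member probes, a share near the 35.1% of all probes. These 7 stand for 5 of the 9 genes with a probe, namely Trpv6, Slc8a1, Atp2b1, Atp2a2 and Atp2c1. Of the other probes, 11 were above background on no array, among them every probe of S100g, Calb1, Atp2b2 and Casr. A normalized log2 signal of 4.90 to 5.002 was the lowest at which an array, depending on the array, still had a probe above background.

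**Figure D1:**
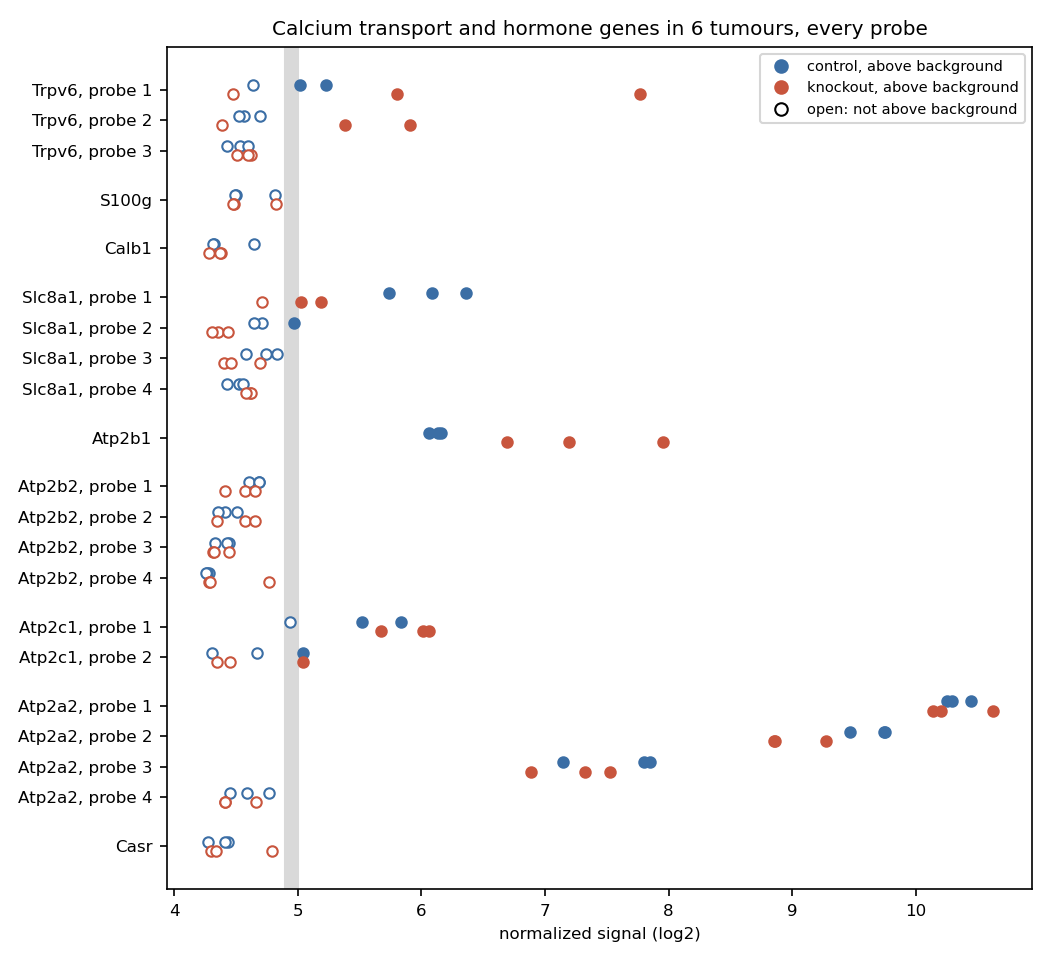
Normalized log2 signal (x axis) of all 21 probes of the 9 genes (rows) in 3 control (blue) and 3 knockout (red) tumours, 1 point per tumour, filled where the probe was above background. The grey band, 4.90 to 5.002, is the lowest signal above background over the arrays, and every point of S100g, Calb1, Atp2b2 and Casr is open.

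By probe, 1 of the 7 tested member probes was called at a limma adjusted p below 0.05, a fall in knockout tumours, beside 9.2% of all tested probes called and 5.06% called lower. The groups did not overlap for 3 of the 7, beside 30.2% of all tested probes. Counted by gene, with the tested probe of highest mean standing for each gene, 1 of the 5 tested members fell (Slc8a1), none rose and 4 did not pass, with 2 at an unadjusted p below 0.05. Among all 9354 genes with a tested probe, 10.1% were called, 4.47% higher and 5.63% lower. The groups did not overlap for 2 of the 5 members, beside 32.1% of all genes. The median difference was 0.48 log2 units over the 5 members and 0.049 over all genes. By probe, the median was -0.0066 over the 7 tested member probes and 0.052 over all tested probes. With so few members tested, these counts are a description only and set the members apart from no other genes.

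The vitamin D-responsive calcium binding proteins were not measurable. S100g, which encodes calbindin-D9k, the buffer that ferries calcium through the gut cell, had a single probe with log2 signals from 4.47 to 4.82 and a lowest detection p of 0.077. Calb1, which encodes calbindin-D28k, its counterpart in the kidney tubule, lay between 4.28 and 4.65 and was likewise not above background in any tumour. For these genes the arrays give only an upper bound in both groups, and no fold was formed.

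Casr, the receptor by which cells sense extracellular calcium, had 1 probe with log2 signals from 4.28 to 4.79, none above background. Atp2b2, the surface pump known to carry calcium into milk, had 4 probes between 4.26 and 4.77, and again none was above background in any tumour. Of the receptors of the PTHrP side, Pth1r, which binds both PTH and PTHrP, was above background on no array with any of its 3 probes.

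Trpv6, the epithelial calcium entry channel (chr6:41620619-41636405, GRCm38.p6), had the widest range over tumours among the tested members. Its tested probe, ILMN_2517665, had log2 signals of 5.02, 5.23 and 4.64 in control tumours 1, 2 and 3, and of 4.48, 5.81 and 7.77 in knockout tumours 1, 2 and 3. Knockout tumours 2 and 3 were thus above every control tumour. Knockout tumour 1 lay below control tumours 1 and 2, so the groups overlapped. Control tumour 3 and knockout tumour 1 were not above background and have no order between them.

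A second Trpv6 probe, ILMN_3001186, had the same split among the knockout tumours, 4.39 in tumour 1 against 5.38 and 5.91 in tumours 2 and 3, and was above background in those 2 tumours alone. The third probe stayed below background throughout, between 4.43 and 4.63. The mean difference of the tested probe was 1.06 ± 0.71 log2 units (SE, 95% interval -0.60 to 2.71, limma adjusted p = 0.42), which did not exceed the spread between tumours. It was 0.18 without knockout tumour 3 and 1.77 without knockout tumour 1, not called in either case (adjusted p = 0.85 and 0.074).

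Summed signals of an alveolar and milk list and of a neutrophil and mast cell list were also higher in knockout tumours 2 and 3 than in knockout tumour 1. The alveolar list has 8 genes with a tested probe, of which 1 rose and 7 did not pass, and its summed normalized signal was 1992 to 3484 in control tumours and 2675, 47661 and 27801 in knockout tumours 1, 2 and 3. Csn1s1, a casein gene, had log2 signals of 4.96, 13.67 and 13.32 in knockout tumours 1, 2 and 3, and of 4.51, 7.68 and 7.35 in the control tumours. Knockout tumour 2 had the highest list sum while knockout tumour 3 had the most Trpv6 signal. Csn2, Lalba, Csn1s2a, Glycam1 and Stat5b of this list were above background in no tumour. The 3 tested genes of the neutrophil and mast cell list, of which none was called, had a summed normalized signal of 1062 to 4662 in control tumours and of 658, 23889 and 21826 in knockout tumours 1, 2 and 3. Their mean log2 signal was 5.999, 9.06 and 10.39 in these knockout tumours, highest in knockout tumour 3 as Trpv6 was. This order was not particular to that list. Means of the macrophage, fibroblast and matrix, basal and myoepithelial, and endothelium lists also rose from knockout tumour 1 through 2 to 3. The means of all other lists were highest in knockout tumour 2. Summed macrophage signal was 3256, 10085 and 8539 in knockout tumours 1, 2 and 3, and 843 to 4578 in control tumours. Ngp, Cpa3, Mcpt4 and Tpsb2 of the neutrophil and mast cell list were above background in no tumour, so its values do not speak for mast cells. The part of any of these cell types in the Trpv6 values was not tested.

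**Figure D2:**
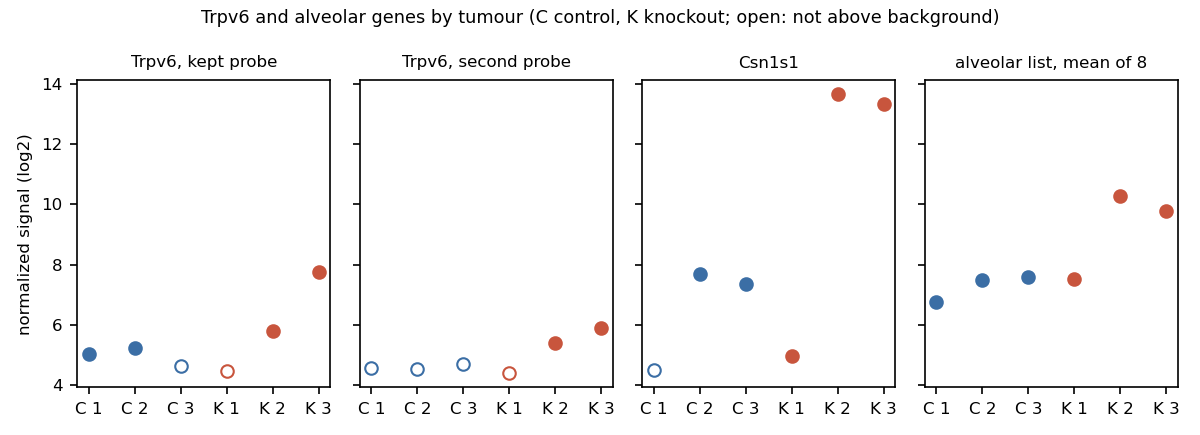
Normalized log2 signal (y axis, shared) by tumour (x axis, C 1 to C 3 control in blue, K 1 to K 3 knockout in red) for the tested and the second probe of Trpv6, for Csn1s1, and for the mean of the 8 tested alveolar genes. Open points were not above background, and K 2 and K 3 lie above every control tumour in each panel while K 1 does not.

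Slc8a1, the sodium-calcium exchanger best known from heart muscle (chr17:81373105-81738387, GRCm38.p6), was the 1 member that changed in the test. Its tested probe, ILMN_2756030, had log2 signals of 5.74, 6.09 and 6.37 in control tumours and 4.71, 5.19 and 5.03 in knockout tumours. Every knockout tumour lay below every control tumour, and the probe was above background in 3 of 3 control and 2 of 3 knockout tumours. The mean was 6.06 ± 0.32 in control and 4.98 ± 0.24 in knockout tumours (SD, n = 3 each). The difference of -1.09 log2 units (SE 0.24, 95% interval -1.64 to -0.54, limma adjusted p = 0.030) is a 2.12-fold lower signal. All knockout values lie near background, so this size is uncertain.

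The call was fragile. Leaving out any 1 of the 6 tumours ended it (adjusted p from 0.060 to 0.090), and the difference was -0.25 with the authors' normalized values (adjusted p = 0.10) and -0.39 without background correction (adjusted p = 0.075). The other 3 probes of Slc8a1 were not tested: ILMN_2448213 was above background in control tumour 2 alone (4.97) and lay between 4.31 and 4.44 in knockout tumours, and the remaining 2 were never above background.

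Summed signals of stromal, vascular, muscle and basal lists were lower in the same tumours. Of the 14 tested genes of the fibroblast and matrix list, 7 fell, none rose and 7 did not pass, and their summed normalized signal was 37727 to 49235 in control and 5350 to 11618 in knockout tumours, Postn being above background in none. The 2 tested endothelial genes summed to 300.5 to 839 in control and 76.3 to 160.0 in knockout tumours, with 1 called lower and Cdh5, Tek, Tie1, Cldn5, Vwf and Plvap above background in none. The 5 tested genes of striated muscle summed to 593 to 1877 against 275 to 554, with none called and Ckm, Myh1, Myh4, Tnnt3, Myh6 and Myh7 above background in no tumour. The 12 tested basal and myoepithelial genes, of which 3 rose and 4 fell, summed to 40843 to 51501 against 19315 to 34710. Their median difference was only -0.15 log2 units. Bright genes weigh most in such sums, and Acta2 of this list had log2 signals of 14.84 to 14.94 in control and 10.80 to 13.35 in knockout tumours. The T and NK cell list, with 1 tested gene that was not called, was also lower, at 33.7 to 43.6 against 22.9 to 25.3. Its knockout log2 signals, 4.52 to 4.66, lay near background. None of these sums overlapped between the groups. In bulk tumours, fewer cells of a type and less RNA per cell cannot be told apart, and the part of these cell types in the fall of Slc8a1 was not tested.

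Over the 6 tumours, the genes whose centred log2 profile lay closest to Slc8a1 among 9354 genes were Gria3, Mtap and Ret, at mean absolute differences of 0.083, 0.097 and 0.12 log2 units.

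Atp2b1, the surface pump found in most tissues, which extrudes calcium from the cell (chr10:98914630-99026143, GRCm38.p6), had 1 probe, above background in all 6 tumours. Its log2 signals were 6.06, 6.16 and 6.14 in control tumours and 7.19, 7.95 and 6.69 in knockout tumours. The groups did not overlap, and the knockout tumours were spread more widely (SD 0.63 against 0.049, n = 3 each). The mean difference was 1.16 ± 0.31 log2 units (SE, 95% interval 0.43 to 1.89, 2.24-fold), with an adjusted p of 0.059 that missed the threshold. Without knockout tumour 3 it was 1.47 and passed (adjusted p = 0.025), and with the authors' normalized values it was 0.46.

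Luminal markers were higher in the same tumours. Of the 14 tested luminal genes, 9 rose, none fell and 5 did not pass, and their summed normalized signal was 6015 to 14100 in control and 17547 to 35802 in knockout tumours, with Ehf above background in none. The part of epithelial content in the Atp2b1 values was not tested.

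No probe of the inner membrane pumps was called. Atp2a2, which encodes SERCA2, the pump that refills the endoplasmic reticulum (chr5:122453513-122502225, GRCm38.p6), had 3 tested probes that did not agree on a size. ILMN_2450031 gave log2 signals of 10.25, 10.44 and 10.29 in control and 10.14, 10.62 and 10.20 in knockout tumours, overlapping groups with a difference of -0.0066 (95% interval -0.49 to 0.47, adjusted p = 0.99). ILMN_1245425 gave 9.74, 9.47 and 9.75 against 9.28, 8.86 and 8.85, with no overlap and a difference of -0.66 ± 0.21 (SE, adjusted p = 0.097), or -0.53 with the authors' normalized values. The third, ILMN_1239742, gave -0.35 ± 0.27 (SE, adjusted p = 0.49), and the remaining probe was never above background. The sign of the near-zero probe turned when control tumour 2, knockout tumour 1 or knockout tumour 3 was left out (0.048, 0.087 and 0.052). No sources used here place these probes on the Atp2a2 transcripts.

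Atp2c1, the calcium and manganese pump of the Golgi (chr9:105411362-105521257, GRCm38.p6), had a tested probe, ILMN_1252963, with log2 signals of 5.83, 5.52 and 4.94 in control and 6.01, 6.06 and 5.67 in knockout tumours. The groups overlapped, control tumour 3 was not above background, and the difference of 0.48 ± 0.27 (SE, 95% interval -0.14 to 1.10, adjusted p = 0.32) was not called. Its other probe was above background in control tumour 1 and knockout tumour 3, at 5.04 in each.

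**Figure D3:**
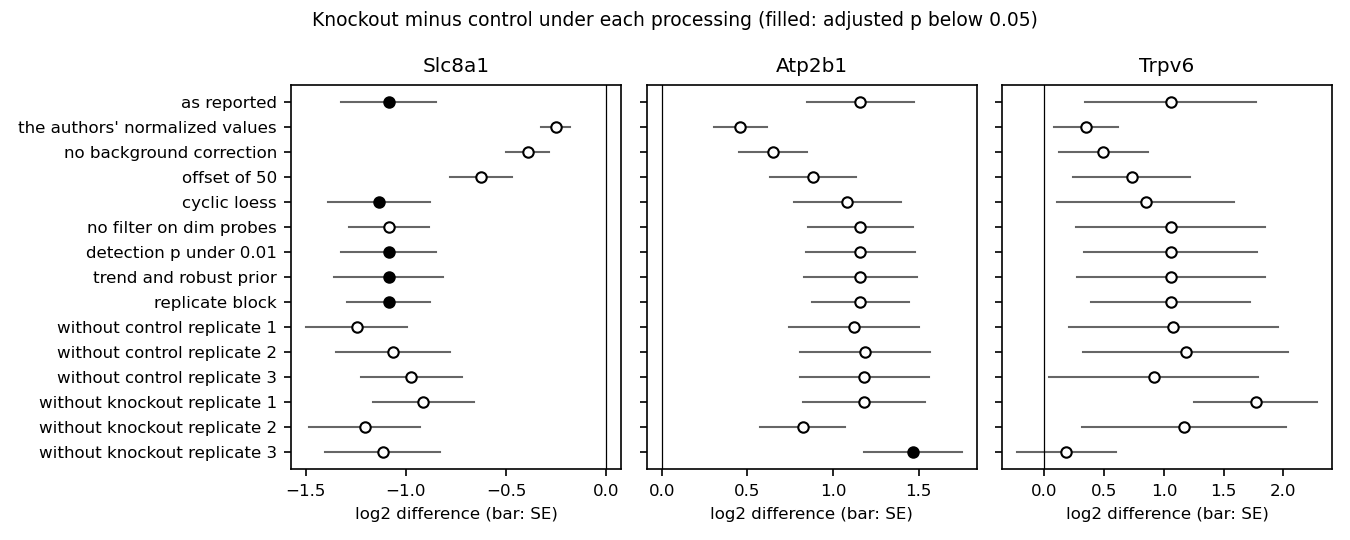
Log2 difference, knockout minus control (x axis, point with SE bar), of the tested probes of Slc8a1, Atp2b1 and Trpv6 under each way of processing (rows), filled where the adjusted p was below 0.05. Slc8a1 lies below 0 in each row and Atp2b1 and Trpv6 above 0, and leaving out knockout tumour 3 moves Trpv6 to 0.18.

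Genes of calcium handling beyond the 10 members were called in both directions. Of 93 other genes listed for this field, 85 had a probe and 40 a tested one, of which 4 rose, 3 fell and 33 did not pass, with 18 at an unadjusted p below 0.05. Over all 9354 genes, 10.1% were called and 2481 were at an unadjusted p below 0.05, so 7 calls among 40 are given as a description. Scaling the arrays by cyclic loess gave 3 rises and 6 falls. The median difference was -0.0067 log2 units.

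Of the 13 tested genes of entry channels and their sensors, 3 rose, 1 fell and 9 did not pass. Trpm6, a magnesium and calcium channel of epithelia fused to a kinase, had log2 signals of 5.23, 6.23 and 5.64 in control and 6.97, 8.29 and 7.23 in knockout tumours, with no overlap. It rose by 1.80 ± 0.40 log2 units (SE, adjusted p = 0.030), and its other tested probe, not above background in control tumour 3, rose by 1.33, also called. The call was lost without control tumour 1, control tumour 3 or knockout tumour 2 (adjusted p = 0.12, 0.098 and 0.073), and also with the authors' normalized values (0.67, adjusted p = 0.099), without background correction and without the filter.

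Cacna1d, the pore of an L-type voltage-gated channel, rose by 2.08 ± 0.53 log2 units (SE, adjusted p = 0.049), with control tumour 3 not above background. It lost its call in 11 of 14 alternatives, among them each left-out tumour (adjusted p from 0.056 to 0.13), the authors' normalized values (0.78, adjusted p = 0.11), no background correction (0.076), an offset of 50 (0.055), no filter (0.18) and the trended robust prior (0.051). P2rx4, an ATP-gated channel that passes calcium, rose by 0.79 ± 0.19 on its brighter probe (SE, adjusted p = 0.040), while its other tested probe differed by 0.37 and was not called (adjusted p = 0.30). The call was lost when any 1 tumour was left out (adjusted p from 0.063 to 0.15) and under cyclic loess (0.0503). Orai1, the pore of store-operated entry, differed by 0.84 ± 0.23 (SE, adjusted p = 0.058) and passed with the authors' normalized values (0.61, adjusted p = 0.048). Its sensor in the reticulum, Stim1, differed by 0.17 (95% interval -0.39 to 0.73).

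Cacna2d1, the extracellular subunit that carries voltage-gated channels to the surface, went the other way. Its log2 signals were 7.52, 7.16 and 7.46 in control and 4.49, 4.48 and 6.16 in knockout tumours, of which only knockout tumour 3 was above background. The fitted difference was -2.34 ± 0.44 log2 units (SE, limma adjusted p = 0.018), a size that rests on values near background in knockout tumours 1 and 2. A second tested probe was also called lower (adjusted p = 0.047) and was above background in no knockout tumour. The call was lost without the filter (adjusted p = 0.084) and without control tumour 1, control tumour 3 or knockout tumour 2 (0.084, 0.071 and 0.068), and the difference was -0.73 with the authors' normalized values.

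Both calcium-binding proteins that changed belong to the secretory pathway and fell. Rcn3, a reticulocalbin of the endoplasmic reticulum, had log2 signals of 7.81, 7.03 and 7.85 in control and 5.01, 4.62 and 5.04 in knockout tumours. Knockout tumour 2 was not above background and the other knockout tumours lay close to it, so the size is uncertain. The fitted difference was -2.67 ± 0.27 log2 units (SE, limma adjusted p = 0.0033), and the call was kept under all 14 alternatives, with sizes from -2.94 to -0.86. Calu, which encodes calumenin, differed by -0.87 ± 0.21 log2 units (SE, limma adjusted p = 0.044), and 2 of its 3 other tested probes, both -0.99, were also called. Its call was lost when any 1 tumour was left out (adjusted p from 0.076 to 0.14). The fibroblast and matrix list, with 7 of 14 tested genes called lower as given above, had its low sums in the same tumours, and its part in these values was not tested.

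Among relatives of the member pumps, Atp2b4, another surface pump, and Atp2a3, another reticulum pump, had 3 probes each, above background on at most 2 arrays, and the single probe of Atp2c2, a Golgi pump of secretory cells, was above it in knockout tumour 2 alone. Of 9 such relatives 3 were tested and none was called, with 1 at an unadjusted p below 0.05 in limma. Vdr, the receptor of active vitamin D, was higher by 2.00 ± 0.43 log2 units (SE, adjusted p = 0.028). Its log2 signals were 9.51, 8.77 and 7.90 in control and 11.22, 10.22 and 10.73 in knockout tumours. The call was lost without control tumour 2 or 3 or knockout tumour 2 or 3 (adjusted p from 0.053 to 0.073). It was also lost without the filter (adjusted p = 0.12). Of its other tested probes, ILMN_2445165 was called (2.06, adjusted p = 0.046) and ILMN_2864062 was not (1.99, adjusted p = 0.079). The latter was not above background in control tumour 3.

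**Figure D4:**
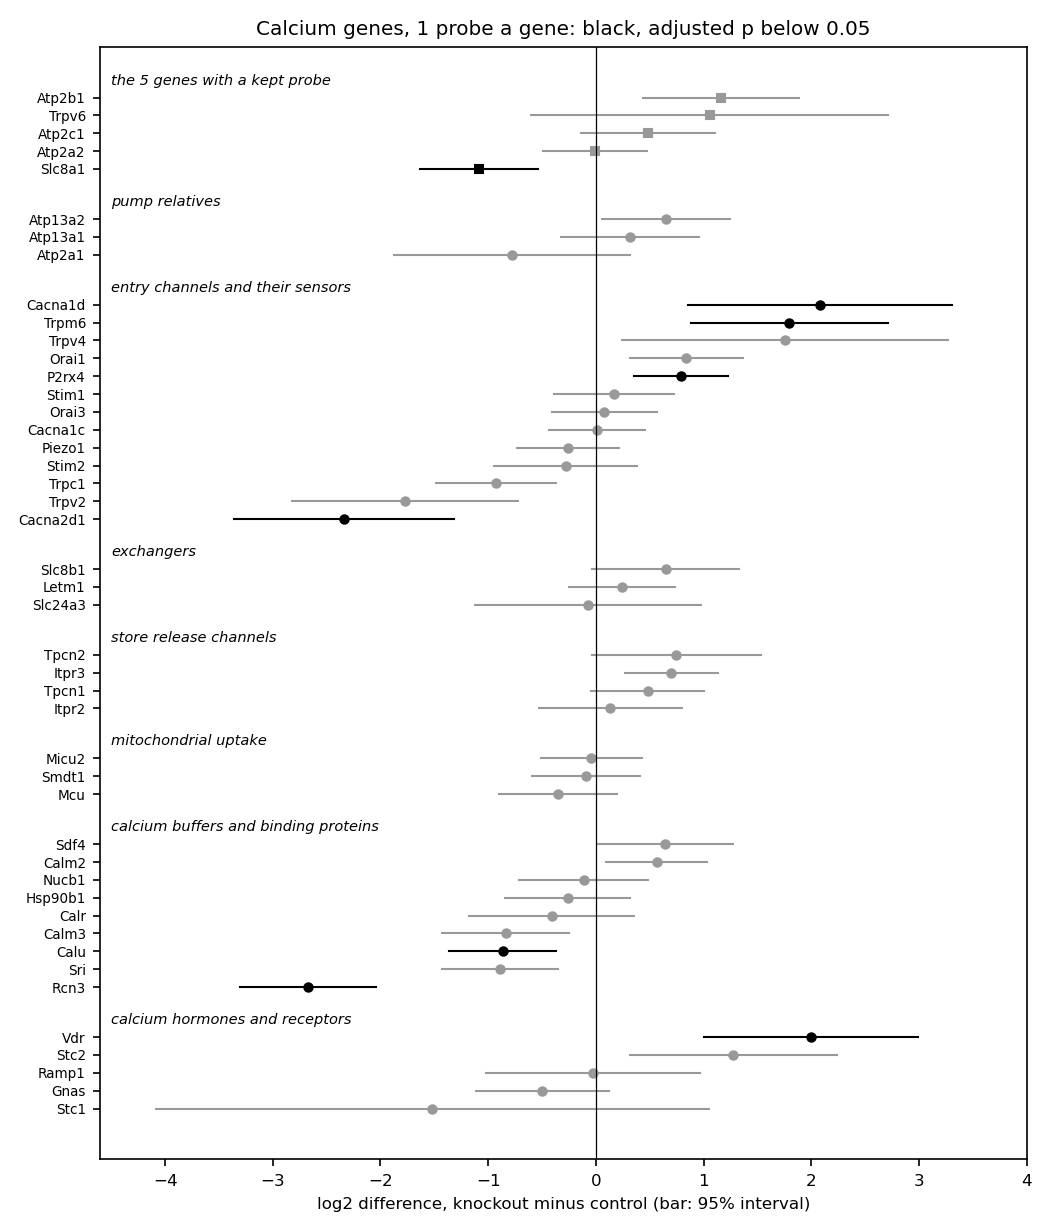
Log2 difference, knockout minus control (x axis, point with 95% interval), of the 5 tested members (squares) and 40 other tested calcium genes (circles) by list, black where the adjusted p was below 0.05. Slc8a1 is the 1 black square, and the black circles are 4 genes above 0 and 3 below it.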

How the data were processed

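Per the file headers, the deposited signals are bead intensity values before normalization, and each comes with a p-value of detection. Broken lines put other content into 1 deposited column, and these 4 lines were dropped, so that 45279 probes remained. The authors also deposited normalized log2 values, for which the submitters' processing notes name lumi 2.6.0. Their order of probes equals that of the signals (Spearman correlation 1 on each array) and their medians lie between 7.40 and 7.41, while their scaling is unknown, and they were kept for an alternative setting.

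With neqc, background was estimated from the detection p-values, followed by quantile normalization and log2 (offset 16) in limma 3.58.1 under R 4.3.3. Dim probes are compressed by this offset. The 15885 probes above background (p below 0.05) in 3 or more of the 6 tumours were fitted with lmFit and eBayes, knockout minus control, two-sided, with Benjamini-Hochberg adjustment over all of them and a threshold of 0.05. The fit was tested on simulated data. Adjusted p-values under another setting come from the same kind of limma fit with that setting, adjusted over the probes it tested. The number of arrays limits the precision. Symbols came from the platform annotation (34883 probes with 1 symbol, 18 with several, 10378 with none), where 34805 matched the GRCm38.p6 gene table by gene number with 0 symbols changed, and promoter sequence came from RefSeq, with 8 of the 10 genes matched.

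The members and lists were chosen with earlier results of these data known. Named were all members, the other calcium genes called, 7 set in advance (Atp2b4, Atp2c2, Atp2a3, Orai1, Stim1, Pth1r and Vdr), and the 3 profiles closest to a called member. Csn1s1 and Acta2 were named after their values were seen. Cyp27b1 had an exact permutation test. Lists of other cell types, by genes tested, rises and falls, gave 12, 3 and 4 for basal and myoepithelial cells, 2, 0 and 1 for endothelium, 5, 0 and 0 for striated muscle, 2, 0 and 0 for adipocytes, 4, 0 and 0 for macrophages, 1, 0 and 0 for T and NK cells, 2, 0 and 0 for B and plasma cells and 3, 0 and 0 for neutrophils and mast cells.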

Additional observations from a re-analysis of the deposited data

How the results depend on the processing

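The count of 1 called member became 0 with the authors' normalized values, without background correction, with an offset of 50 and without the filter on dim probes, where limma gave 2 at an unadjusted p below 0.05 each time. In these settings the difference of Slc8a1 was -0.25, -0.39, -0.62 and -1.09 (adjusted p = 0.10, 0.075, 0.0501 and 0.069). With a tumour left out it was -1.25 to -0.91 and never called. The count then ran from 0 to 1, the 1 being a rise of Atp2b1 without knockout tumour 3. Slc8a1 stayed called under cyclic loess, a detection p below 0.01, a trended robust prior and the replicate block. Atp2b1 ran from 0.82 to 1.47, the latter called, and the near-zero probe of Atp2a2 from -0.16 to 0.087 with a tumour left out. Stim1 ran from -0.025 (without knockout tumour 1) to 0.34. The other tested member probes kept their direction and stayed uncalled under every alternative run. The test of Cyp27b1 cannot reach the threshold, so it says nothing about stability. Other calcium genes called numbered 3 without the filter, 11 with the trended robust prior and 1 to 6 with a tumour left out, against 7. All probes called numbered 723 without the filter and 375 to 1534 with a tumour left out, against 1461. The cause of these changes was not tested.

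The replicate number as a block gave 1381 called probes and left Slc8a1 called (-1.09, adjusted p = 0.032), while the calls of P2rx4 (0.073) and Calu (0.054) were lost. Same-numbered tumours deviated together with correlations of 0.061 to 0.23, and 5 of 6 samples correlated best with their own number. The labels read here state no pairing, so the main fit took none. These values do not settle whether the numbers are pairs. No header gives a slide, so a slide block was not run. Near background, the size of a difference is uncertain, and a difference can be missed.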
